A study of Homo sapiens with 6 samples.

Results

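Imprinted genes were measured in HEK293 cells of 2 genotypes, wild type (WT) and MUL1(-/-), by RNA sequencing. The set was a hand-made list of 36 genes known to be expressed from 1 parental allele, or to lie in a cluster of such genes, and all 36 were found among 57885 genes with a row in the count tables. By textbook assignment, 9 of them are expressed from the maternal allele and 20 from the paternal allele. The other 7 have an allele that depends on the transcript or tissue or is unsettled. UBE3A was counted with the 9, although its imprinting also depends on the tissue. The rule for the list did not use the values of these libraries, but the members were chosen with earlier results of these data known.

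Genomic imprinting is the expression of a gene from only the copy inherited from the mother or only the copy inherited from the father. It is set by DNA methylation laid down in the egg or the sperm at control regions, and these marks are kept through cell division by DNMT1 and UHRF1, and at many control regions by the zinc finger proteins ZFP57 and ZNF445 with TRIM28. Imprinted genes lie in clusters, and many of them act on growth of the embryo and placenta. In cultured cells the marks can be lost or gained. The counts used here do not tell the parental alleles apart, so a level is the sum over all copies of a gene.

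HEK293 is a human embryonic kidney cell line with an abnormal set of chromosomes. MUL1 is an E3 ubiquitin ligase of the outer mitochondrial membrane. There were 3 libraries from WT cells and 3 from cells labelled MUL1(-/-), a knockout line made earlier by CRISPR-Cas9. Both were grown in the same serum-containing medium without a drug. The paper describes WT control clones transfected with an empty vector, and does not say which WT cells were sequenced. The number of clones behind the sequenced knockout libraries is not given in the sources used here. A difference between the genotypes therefore cannot be told apart from a difference between cell clones. The labels do not say whether the 3 libraries of a genotype came from separate cultures, so the p-values measure the spread between these samples, which may be technical.

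Counts summed over exon bins ranged from 132849479 to 149317215 per WT library and from 127466071 to 128125459 per MUL1(-/-) library. Levels are given as CPM, the count of a gene scaled to a common size of these totals. A read that touches several bins adds to each of them, which makes the sums larger than the read number, and a gene with 3 counts or fewer was taken as not detected. MUL1 itself had 1962, 2146 and 2396 counts in WT and 2366, 2084 and 2378 in the libraries labelled MUL1(-/-), which is 0.14 higher on the log2 scale (SE 0.103, adjusted p = 0.302). A small edit need not lower the transcript, so its level does not check the labels. Of the 10 HEK293 markers looked at, all 10 were tested, 2 were higher and 4 lower at an adjusted p under 0.05, and their summed level was 1289 to 1431 CPM in WT and 971 to 1153 CPM in MUL1(-/-). Of 10 markers of blood, epithelial, fibroblast and endothelial cells, 6 were tested. PTPRC, DCN, LUM and PECAM1 rose past both thresholds. PTPRC and PECAM1 were low in both genotypes, with means of 0.0877 and 0.0490 CPM in WT and 0.357 and 0.219 CPM in MUL1(-/-). DCN went from 1.11 to 2.86 CPM and LUM from 1.04 to 9.25 CPM. COL1A1, a fibroblast marker like DCN and LUM, fell by 0.38 on the log2 scale (adjusted p = 0.0104). EPCAM, at 0.02, did not pass the test (adjusted p = 0.843), and CD3E and KRT14 were at or under 3 counts in each library. The summed level of these 10 was 77.6 to 80.3 CPM in WT and 86.2 to 92.4 CPM in MUL1(-/-), and the part of either marker list in the results was not tested.

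The promoters below are those on which the results on transcript starts turn, together with that of DIRAS3, which rose. Each window holds 250 bases before and 50 after an annotated transcript start in RefSeq (GRCh38.p14), 5′ to 3′ on the strand of the gene, with CpG dinucleotides, the sites that imprint methylation occupies, in capitals. Both GNAS windows are on the plus strand of chromosome 20, at chr20:58839498-58839797 for NESP55 and chr20:58888930-58889229 for exon A/B. The GRB10 window, chr7:50793404-50793703, and the DIRAS3 window, chr1:68050578-68050877, are on the minus strand.
GNAS NESP55: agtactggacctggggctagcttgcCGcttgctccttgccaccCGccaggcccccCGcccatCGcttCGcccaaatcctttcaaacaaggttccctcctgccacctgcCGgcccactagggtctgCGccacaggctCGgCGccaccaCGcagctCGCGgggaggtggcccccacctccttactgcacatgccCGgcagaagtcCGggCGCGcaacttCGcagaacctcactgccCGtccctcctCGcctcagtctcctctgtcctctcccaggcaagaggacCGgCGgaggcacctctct
GNAS A/B: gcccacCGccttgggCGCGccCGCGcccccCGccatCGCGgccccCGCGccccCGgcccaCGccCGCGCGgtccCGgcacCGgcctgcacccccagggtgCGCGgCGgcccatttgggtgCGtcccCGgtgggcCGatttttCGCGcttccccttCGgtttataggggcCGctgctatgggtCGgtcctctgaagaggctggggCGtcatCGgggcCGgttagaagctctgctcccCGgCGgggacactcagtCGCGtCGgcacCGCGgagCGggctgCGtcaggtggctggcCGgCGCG
GRB10 upstream: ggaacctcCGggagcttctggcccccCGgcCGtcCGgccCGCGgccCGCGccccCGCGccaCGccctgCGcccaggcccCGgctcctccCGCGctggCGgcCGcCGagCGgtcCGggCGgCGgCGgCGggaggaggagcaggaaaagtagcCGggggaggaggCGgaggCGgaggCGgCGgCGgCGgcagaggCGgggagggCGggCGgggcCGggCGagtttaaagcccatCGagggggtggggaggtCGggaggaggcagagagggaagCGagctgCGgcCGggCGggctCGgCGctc
DIRAS3: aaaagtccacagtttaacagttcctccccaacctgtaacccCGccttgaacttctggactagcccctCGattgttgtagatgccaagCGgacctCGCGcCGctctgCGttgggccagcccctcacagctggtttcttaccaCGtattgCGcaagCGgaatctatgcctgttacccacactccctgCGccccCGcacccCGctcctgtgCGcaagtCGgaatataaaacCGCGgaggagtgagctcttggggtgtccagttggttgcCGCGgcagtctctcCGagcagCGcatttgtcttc

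The NESP55 window held 21 CpG sites, the A/B window 43, the GRB10 window 44 and the DIRAS3 window 21, against a median of 14 over all 35116 windows of this length. Windows were found for 24 of the 36 members, 55 in all, and their median was 18 CpG sites. The sequence TGCCGC, searched on both strands and known as the core bound by ZFP57, was in 22 of the 55 member windows (40.0%) and in 16.7% of all windows. It was found in the NESP55, GRB10 and DIRAS3 windows, and not in the A/B window. Several windows of a gene overlap each other, and a match describes letters only. Members without a window here were KCNQ1OT1, CDKN1C, PHLDA2, SLC22A18, MEG8, DLK1, PEG3, ZIM2, PEG10, SGCE, NNAT and TRAPPC9.

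Levels of the members spanned from no count at all in MAGEL2 to a mean of 1999 CPM in GNAS. Of the 36, 24 passed the filter on low counts and were tested among 26060 genes with edgeR's quasi-likelihood test. The other 12 were MEG3, MEG8, DLK1, RTL1, PEG3, ZIM2, HYMAI, SNURF, NDN, MAGEL2, NAP1L5 and NLRP2, and of these RTL1, NDN and MAGEL2 were at or under 3 counts in every library. Per length, GNAS was highest in WT, at 150 CPM per kilobase, followed by PEG10 at 37.8, COPG2 at 26.8 and SGCE at 24.3, and in MUL1(-/-) these levels were 108, 32.2, 17.7 and 24.7 CPM per kilobase. Because a read adds to each bin it touches, this order also depends on how finely a gene is cut. SGCE had 33 bins over 2547 bases and PEG10 had 19 over 6689.

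**Figure D1:**
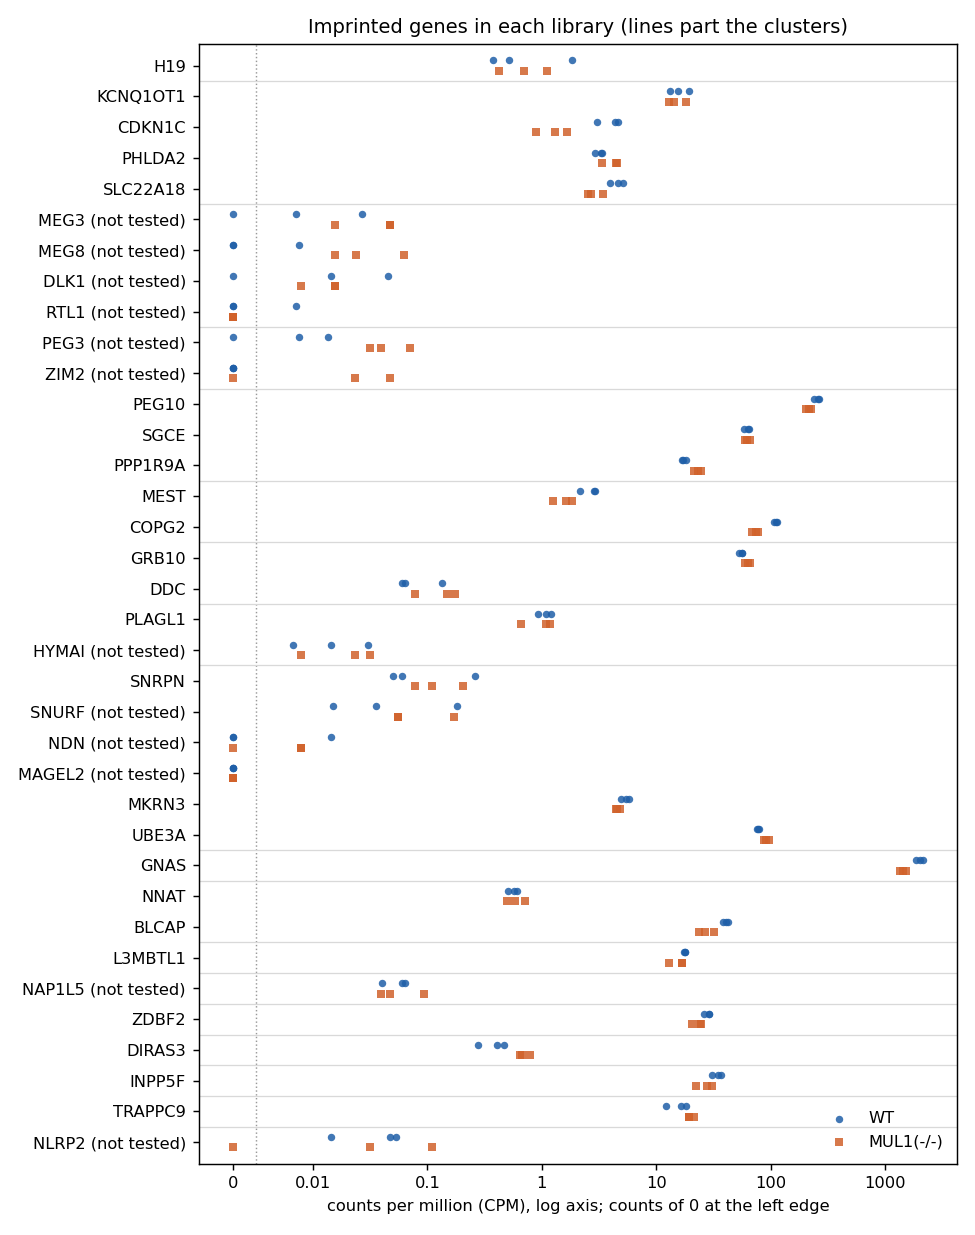
Level of each of the 36 imprinted genes in each library, in CPM on a log axis, with 3 WT libraries as circles and 3 MUL1(-/-) libraries as squares, and counts of 0 placed at the left edge. CDKN1C is the tested gene whose genotypes lie farthest apart, and MEG3, MEG8, DLK1, RTL1, PEG3, ZIM2, NDN and MAGEL2 sit near 0 in both genotypes.

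Among the 24 tested members, 10 fell and 2 rose in MUL1(-/-) at an adjusted p under 0.05. Those that fell were CDKN1C, SLC22A18, PEG10, MEST, COPG2, MKRN3, GNAS, BLCAP, ZDBF2 and INPP5F, and those that rose were PPP1R9A and DIRAS3. Over all tested genes the same test called 18.5% lower and 19.3% higher. The count of 2 depended on the processing. Scaled by library totals, 6 members were higher and 9 lower, and without the filter on low counts 7 were higher and 9 lower. Without WT replicate 3 or without MUL1(-/-) replicate 2, 1 member was higher. With an absolute log2 fold change above 1 required as well, 1 member was lower, CDKN1C, and 0 were higher, against 3.75% lower, 4.17% higher and 7.91% in either direction over all tested genes. The libraries of the genotypes did not overlap for 16 of the 24, against 49.9% of all tested genes. The median log2 fold change of the 24 was -0.23, and that of all tested genes was -0.00.

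By parental allele, 6 of the 9 maternally expressed members were tested, of which 1 rose and 2 fell, with a median log2 fold change of -0.09. These include UBE3A, at 0.18, whose imprinting depends on the tissue, and the median was not computed without it. Of the 20 paternally expressed members 11 were tested, of which 1 rose and 4 fell, with a median of -0.21. All 7 members of the remaining class were tested, of which 0 rose and 4 fell, with a median of -0.41. Over all tested genes 19.3% were higher and 18.5% lower by the same test. This last class holds members whose expressed allele is unsettled or depends on the transcript, such as COPG2, GRB10 and GNAS, and the classes were not tested against each other.

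**Figure D2:**
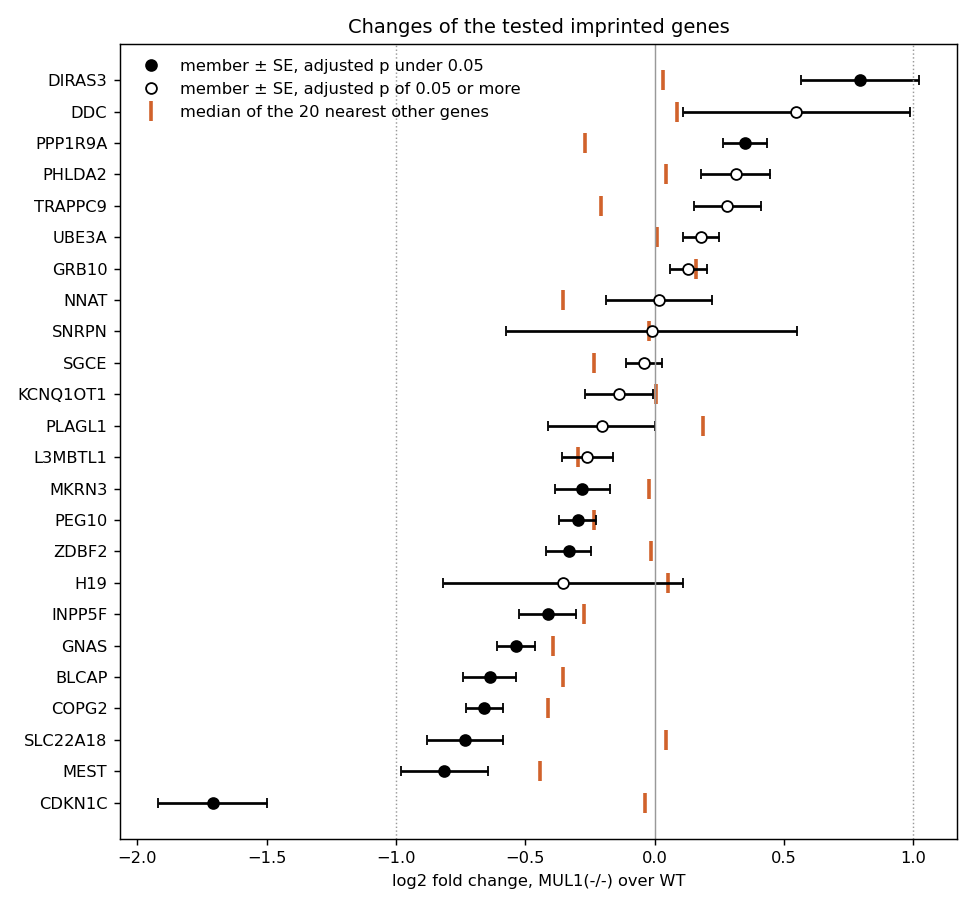
Log2 fold change of MUL1(-/-) over WT with its standard error for the 24 tested imprinted genes, filled where the adjusted p was under 0.05, with an orange tick at the median of the 20 nearest tested genes that are not imprinted. CDKN1C, at -1.71, is the only member past the dotted lines at -1 and 1, and the ticks of the chromosome 20 genes lie below 0 as their members do, except for NNAT.

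The chromosome 11 clusters held the largest change among the tested members. CDKN1C (ENSG00000129757, chr11:2883213-2885773, minus strand) is a cyclin-dependent kinase inhibitor, expressed from the maternal copy, that restrains growth, and its loss is known in Beckwith-Wiedemann syndrome. Its level was 4.63, 4.35 and 3.01 CPM in WT and 1.30, 1.67 and 0.887 CPM in MUL1(-/-). The genotypes did not overlap. In bulk RNA such a difference does not tell fewer expressing cells from less RNA per cell. The mean went from 4.0 ± 0.864 to 1.28 ± 0.390 CPM (SD, 3 libraries a genotype), and on the log2 scale CDKN1C fell by 1.71 (SE 0.211, adjusted p = 2.4e-05). The 20 nearest genes that are not imprinted had a median log2 fold change of -0.04 over 1.51 Mb, with 3 higher and 4 lower. Of the 16 alternatives of the gene fit, all 16 kept CDKN1C past both thresholds, at log2 fold changes from -1.94 to -1.51.

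SLC22A18 (ENSG00000110628), a transporter gene beside CDKN1C that is also expressed from the maternal copy, was at 5.14, 4.64 and 3.92 CPM in WT and 2.66, 3.43 and 2.54 CPM in MUL1(-/-). No library of one genotype reached into the range of the other, and it fell by 0.73 on the log2 scale (SE 0.146, adjusted p = 0.0012). PHLDA2, the next gene in the cluster and a brake on placental growth, went the other way in its values. It stood at 3.36, 2.89 and 3.26 CPM in WT and 4.44, 4.55 and 3.38 CPM in MUL1(-/-), with a log2 fold change of 0.31 (SE 0.133) that did not pass the test (adjusted p = 0.0799). The last of these libraries lay close to the WT range, and without it the adjusted p was 0.0113. With library totals it was 0.0397.

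KCNQ1OT1 is the long RNA read from the paternal copy of this domain, antisense to KCNQ1, and is known for silencing CDKN1C and its neighbours in cis. Its level was 13.2, 19.3 and 15.4 CPM in WT and 18.1, 14.4 and 13.0 CPM in MUL1(-/-), and the difference of -0.14 on the log2 scale (SE 0.132) did not pass the test (adjusted p = 0.452). The genotypes overlapped. All of its counts lay in 1 bin of 91667 bases that overlaps exons of other genes, and the counting is not stated to use strand, so reads of KCNQ1OT1 and of KCNQ1 cannot be told apart.

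H19, a long RNA of the maternal copy, and IGF2, the fetal growth factor of the paternal copy, share enhancers at the other control region of chromosome 11. H19 was at 0.519, 1.81 and 0.376 CPM in WT and 0.695, 0.422 and 1.11 CPM in MUL1(-/-), with 271 counts in the second WT library and 50 to 141 in the other 5. The log2 fold change of H19, -0.35 (SE 0.465, adjusted p = 0.592), turned to 0.63 without that library. IGF2, which is not one of the 36, was at 6.92, 8.01 and 8.52 CPM in WT and 2.74, 2.21 and 1.71 CPM in MUL1(-/-). It fell with no overlap, by 1.88 on the log2 scale (SE 0.147, adjusted p = 4.4e-07), and 30.3% of its counts were in bins shared with other genes. The antisense gene IGF2-AS, named here after its values were seen, had 14, 12 and 11 counts in WT and 2, 0 and 0 in MUL1(-/-). Bins shared with other genes held 43.6% of these counts. As the counting is not stated to use strand, reads in those bins cannot be assigned to IGF2-AS alone.

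**Figure D3:**
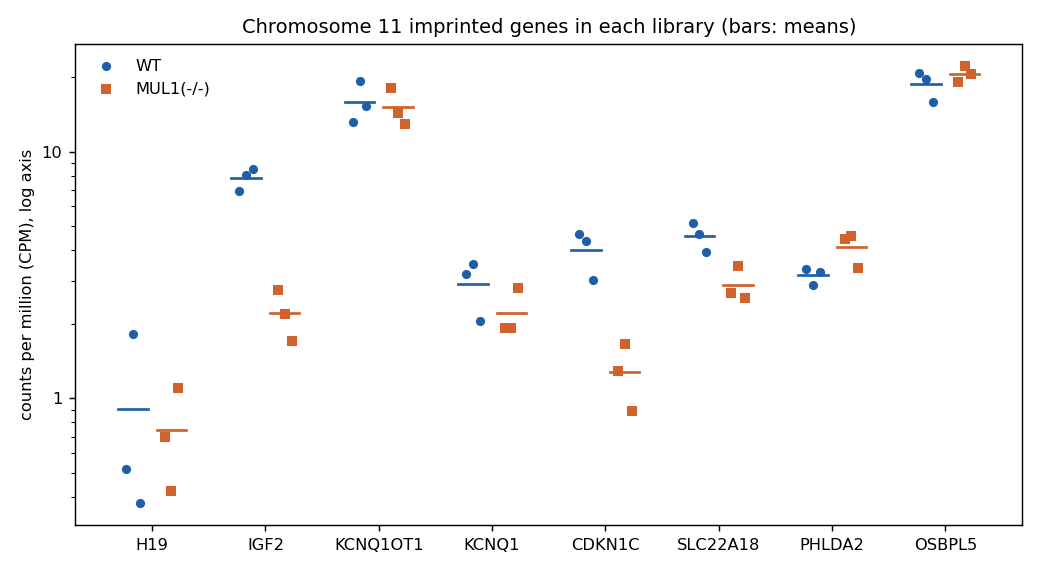
Level of 8 imprinted genes of chromosome 11 in each library, in CPM on a log axis, with WT as circles, MUL1(-/-) as squares and bars at the means. IGF2, CDKN1C and SLC22A18 are lower in MUL1(-/-) without overlap, whereas the libraries of H19, KCNQ1OT1, KCNQ1 and OSBPL5 overlap between the genotypes.

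GNAS was the most abundant member, and the use of its first exons differed between the genotypes. GNAS (ENSG00000087460, chr20:58839718-58911192, plus strand) encodes the stimulatory G protein alpha subunit (Gsα), which couples hormone receptors to adenylyl cyclase, and its alternative first exons differ in imprinting. NESP55 starts on the maternal copy, XLαs and the untranslated exon A/B on the paternal copy, and Gsα on both copies in most tissues. The whole gene was at 2136, 1998 and 1862 CPM in WT and 1440, 1349 and 1533 CPM in MUL1(-/-). The genotypes did not overlap, and GNAS fell by 0.54 on the log2 scale (SE 0.0744, adjusted p = 6.6e-05). Its 20 nearest genes that are not imprinted had a median log2 fold change of -0.39, with 0 higher and 9 lower, so GNAS was 0.14 below its surroundings.

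Exon bins separate these starts. Use of a bin within its gene was tested with edgeR's diffSpliceDGE over 324742 bins, where the relative log2 fold change is that of the bin less that of the whole gene. Over all tested bins 0.653% were called at an adjusted p under 0.05 with a relative log2 fold change above 1 in size. Of the 480 tested bins of the members, 10 were called, of which 8 were in GNAS, 1 in BLCAP and 1 in PPP1R9A. The last 2 were under 1 CPM in both genotypes. Some GNAS bins also had means under 1 CPM in both. In WT and MUL1(-/-), the NESP55 bin from 58840344 was at 0.952 and 0.336 CPM. The A/B bin from 58889151 was at 0.119 and 0.193 CPM, and that from 58889160 at 0.160 and 0.277 CPM. Of the 10, 7 were higher and 3 lower, and without WT replicate 1 the number higher was 4.

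The 3 called bins of the NESP55 first exon, from 58839748 to 58840886 on chromosome 20 and beginning at the transcript start of the NESP55 window printed above, fell relative to the gene by 1.02 to 1.14 on the log2 scale. The region of this exon was at 4.85, 4.9 and 5.0 CPM in WT and 1.87, 1.77 and 1.69 CPM in MUL1(-/-). The means were 4.92 ± 0.0738 and 1.78 ± 0.0898 CPM, a log2 ratio of -1.47, with libraries of each genotype close together and far from those of the other. Its share of the counts of GNAS was 0.247% ± 0.0207 in WT and 0.124% ± 0.0116 in MUL1(-/-) (SD, n = 3 each). A two-sided exact permutation test of the share gave p = 0.1, the smallest p that 3 against 3 libraries allow. All 3 bins overlap exons of the antisense gene GNAS-AS1, which fell by 0.83 (SE 0.106, adjusted p = 3.3e-05), and since the counting is not stated to use strand, the 2 genes cannot be told apart there.

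The exon A/B bins went up. In the bin from 58889171 to 58889213, counts were 65, 47 and 63 in WT and 134, 138 and 141 in MUL1(-/-), a relative log2 fold change of 1.85 (adjusted p = 3e-17). In the next bin, to 58889222, they were 60, 46 and 60 in WT and 131, 135 and 135 in MUL1(-/-), a relative change of 1.88 (adjusted p = 2.5e-17). In the one after, to 58889226, they were 120, 86 and 127 in WT and 220, 205 and 210 in MUL1(-/-), a relative change of 1.54 (adjusted p = 1.2e-17). In each bin every MUL1(-/-) library was above every WT library. The bins lie at the end of the A/B window printed above, around its transcript start. These are short neighbouring bins that share reads, so they stand for 1 observation and not for 3, and no other gene's exon overlaps them. Their levels rose as well, by log2 fold changes of 1.00 to 1.35, although the gene as a whole fell. The called bins just before them, from 58889151 and from 58889160, had relative changes of 1.15 and 1.25. The levels of those bins did not pass the test (adjusted p = 0.167 and 0.0623).

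Over the whole A/B region, from 58888413 to 58889549, the level was 8.41, 7.09 and 8.28 CPM in WT and 12.3, 11.7 and 12.8 CPM in MUL1(-/-), and its share of the counts of GNAS went from 0.398% ± 0.0452 to 0.851% ± 0.0178. The exact permutation p was again 0.1. At the Gsα first exon the level was 104, 97.0 and 94.7 CPM in WT and 85.7, 74.2 and 84.0 CPM in MUL1(-/-), a log2 ratio of -0.28 with no overlap. Within that exon the bin from 58891582 to 58891715 had a relative log2 fold change of 0.98 (adjusted p = 3.4e-15), just under the threshold of 1. The XLαs region had 11, 24 and 32 counts in WT and 4, 7 and 7 in MUL1(-/-), and none of its bins was deep enough to be tested.

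**Figure D4:**
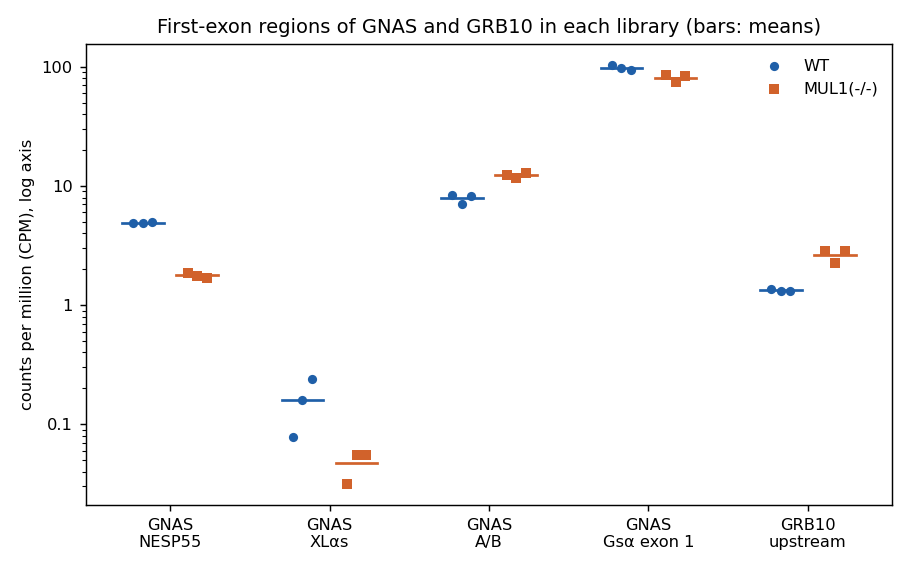
Level of 4 first-exon regions of GNAS and of the upstream first exon of GRB10 in each library, in CPM on a log axis, with WT as circles, MUL1(-/-) as squares and bars at the means. The NESP55 region is lower in MUL1(-/-) while the A/B region and the GRB10 exon are higher, all without overlap.

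GRB10 (ENSG00000106070, chr7:50590063-50793462, minus strand), an adaptor protein that dampens insulin receptor signalling, is expressed from different parental copies in different tissues through separate promoters. The whole gene was at 56.1, 55.6 and 53.1 CPM in WT and 63.6, 59.1 and 65.9 CPM in MUL1(-/-). The libraries did not overlap, but the difference of 0.13 on the log2 scale (SE 0.0731) did not pass the test (adjusted p = 0.179). It passed with library totals, at 0.19 (adjusted p = 0.0331), and in its most counted bin alone, at 0.47 (adjusted p = 0.000302). Its upstream first exon, from 50792442 to 50793462 on chromosome 7, was at 1.35, 1.31 and 1.32 CPM in WT and 2.83, 2.26 and 2.86 CPM in MUL1(-/-). That is a log2 ratio of 0.99, and the share of the exon in the counts of the gene went from 2.42% ± 0.0684 to 4.20% ± 0.331, with an exact permutation p of 0.1, the smallest possible. In the bin from 50793224 to 50793432 the relative log2 fold change was 0.83 (adjusted p = 3.8e-07), under the fold threshold. This bin lies just downstream of the start in the GRB10 promoter window printed above. DDC, the neighbour of GRB10 that makes dopamine and serotonin from their precursors, had 8 to 20 counts in WT and 10 to 22 in MUL1(-/-), a difference of 0.55 on the log2 scale (SE 0.440) that did not pass the test (adjusted p = 0.356).

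On chromosome 7 the PEG10 cluster split. PEG10, a retrotransposon-derived gene of the paternal copy needed in placenta, was at 261, 262 and 237 CPM in WT and 205, 215 and 226 CPM in MUL1(-/-), and fell by 0.30 on the log2 scale (SE 0.0721, adjusted p = 0.0047). SGCE, which encodes a sarcoglycan and starts head to head with PEG10 on the other strand, was at 58.4 to 64.7 CPM in WT and 60.0 to 65.9 CPM in MUL1(-/-). The difference was -0.04 on the log2 scale (SE 0.0706, adjusted p = 0.682), and 0.020 when library totals alone set the scale. PPP1R9A (ENSG00000158528, chr7:94907202-95296415, plus strand), a neuronal actin-binding protein, was at 16.8, 18.2 and 17 CPM in WT and 21.4, 23.0 and 24.7 CPM in MUL1(-/-), with no overlap. It rose by 0.35 on the log2 scale (SE 0.0855, adjusted p = 0.0051), while its 20 nearest genes that are not imprinted had a median of -0.27. That leaves PPP1R9A 0.62 above its surroundings and PEG10 0.06 below.

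Both members of the MEST cluster, also on chromosome 7, fell. KLF14 and CPA4, looked up beside them, had log2 fold changes of 0.24 and 1.14 that did not pass the test (adjusted p = 0.400 and 0.0640). MESTIT1 had 0 to 5 counts per library and was not tested. MEST (ENSG00000106484), an enzyme-like protein of mesoderm expressed from the paternal copy, was at 2.87, 2.89 and 2.14 CPM in WT and 1.62, 1.83 and 1.26 CPM in MUL1(-/-), and fell by 0.81 (log2, SE 0.168, adjusted p = 0.0016). COPG2, a coat protein of Golgi vesicles that overlaps the end of MEST on the other strand, was at 112, 114 and 107 CPM in WT and 68.6, 77.9 and 73.8 CPM in MUL1(-/-), and fell by 0.66 (log2, SE 0.0717, adjusted p = 8e-06). Neither gene's libraries overlapped between the genotypes. Bins shared with other genes held 47.7% of the counts of MEST. In shared bins, reads of MEST and of COPG2, the more abundant of the pair, cannot be fully told apart. MEST passed the test under all 16 alternatives, at log2 fold changes from -0.963 to -0.688. The fit on bins shared with no other gene is among these. The nearest genes that are not imprinted were lower too, with a median log2 fold change of -0.44 around MEST and -0.41 around COPG2, which leaves differences of -0.37 and -0.25.

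Of the chromosome 15 region of the Prader-Willi and Angelman syndromes, NDN and MAGEL2 were not detected and SNRPN and SNURF were low in both genotypes. NDN had 0 to 2 counts and MAGEL2 none in any library. SNRPN, a core protein of splicing particles, had 7, 39 and 8 counts in WT and 26, 14 and 10 in MUL1(-/-), a difference of -0.01 on the log2 scale (SE 0.562) that did not pass the test (adjusted p = 0.99). Other genes' exons cover the bins of 89.4% of these counts, SNURF among them, which had 5, 27 and 2 counts in WT and 22, 7 and 7 in MUL1(-/-). The second WT library stood above the other WT libraries in both genes, and without it the log2 fold change of SNRPN was 1.15.

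UBE3A, the ubiquitin ligase lost in Angelman syndrome, was expressed in both genotypes, at 78.1, 77.6 and 76.4 CPM in WT and 86.9, 91.4 and 96.1 CPM in MUL1(-/-). Its libraries did not overlap, with a log2 fold change of 0.18 (SE 0.0699) that missed the threshold (adjusted p = 0.0586) and passed it under 4 of the 16 alternatives, at 0.24 with library totals (adjusted p = 0.00784). MKRN3, a zinc finger protein known as a brake on puberty, was at 4.95, 5.38 and 5.77 CPM in WT and 4.85, 4.54 and 4.46 CPM in MUL1(-/-). It fell by 0.28 on the log2 scale (SE 0.105, adjusted p = 0.0494), just inside the threshold, and 12 of the 16 alternatives put it outside, at adjusted p-values up to 0.548. Bins shared with other genes held 42.0% of the counts of MKRN3.

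Of the other chromosome 20 members, BLCAP, a small membrane protein gene with NNAT in its intron, was at 40.2, 38.5 and 42.7 CPM in WT and 26.5, 23.4 and 31.6 CPM in MUL1(-/-). It fell without overlap, by 0.64 on the log2 scale (SE 0.103, adjusted p = 0.00024). NNAT, a proteolipid of developing neurons, was at 0.505 to 0.610 CPM in WT and 0.493 to 0.706 CPM in MUL1(-/-), and its difference of 0.02 (log2, SE 0.204) did not pass the test (adjusted p = 0.962). L3MBTL1, a chromatin reader expressed from the paternal copy, was at 17.9, 17.3 and 17.8 CPM in WT and 16.8, 16.7 and 12.8 CPM in MUL1(-/-), a log2 fold change of -0.26 (SE 0.0993) that missed the threshold (adjusted p = 0.0523) and passed it under 5 of the 16 alternatives, DESeq2 among them (adjusted p = 0.0346). MUL1(-/-) replicate 3 was the lowest and the other 5 lay close together. Neighbours of BLCAP and L3MBTL1 that are not imprinted had median log2 fold changes of -0.35 and -0.30.

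The members that lie alone gave 1 rise and 2 falls. DIRAS3 (ENSG00000162595, chr1:68045896-68051631, minus strand), a paternally expressed RAS-like protein known as a growth suppressor, was at 0.470, 0.402 and 0.279 CPM in WT and 0.640, 0.790 and 0.667 CPM in MUL1(-/-). It rose without overlap by 0.79 on the log2 scale (SE 0.229, adjusted p = 0.0134), on 37 to 66 counts in WT and 82 to 101 in MUL1(-/-). Without WT replicate 3 the adjusted p was 0.0522, and without MUL1(-/-) replicate 2 it was 0.057. Its 20 nearest genes that are not imprinted had a median of 0.03.

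ZDBF2, a zinc finger gene of the paternal copy, was at 26, 28.6 and 29.1 CPM in WT and 20.6, 24.2 and 24.6 CPM in MUL1(-/-), and fell without overlap by 0.33 (SE 0.0878, adjusted p = 0.0081) where its surroundings had a median of -0.01. INPP5F, a phosphoinositide phosphatase with an imprinted alternative transcript, was at 34.8, 37.0 and 30.5 CPM in WT and 27.5, 30.9 and 22.1 CPM in MUL1(-/-). It fell by 0.41 (SE 0.109, adjusted p = 0.0081), although its second MUL1(-/-) library lay above the lowest WT library. The start that the imprinted transcript of INPP5F uses was not singled out by a called bin, since 0 of its 32 tested bins passed.

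TRAPPC9, a subunit of a vesicle tethering complex, was at 18.2, 16.3 and 12.1 CPM in WT and 19.1, 19.2 and 21.1 CPM in MUL1(-/-), with the third WT library lowest, and did not pass the test (0.28 on the log2 scale, SE 0.13, adjusted p = 0.105). It passed under 3 of the 16 alternatives, and without WT replicate 1 it was at 0.43 (adjusted p = 0.0219). PLAGL1, a zinc finger growth suppressor linked to transient neonatal diabetes, was at 1.20, 1.08 and 0.933 CPM in WT and 1.17, 1.09 and 0.659 CPM in MUL1(-/-), and did not pass the test (log2 fold change -0.21, SE 0.206, adjusted p = 0.474). In its most counted bin alone PLAGL1 was at -0.93 (adjusted p = 0.0483). HYMAI, an RNA in its intron, had 1 to 4 counts per library.

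The members of the chromosome 14 and PEG3 clusters were close to absent from both genotypes. Other imprinted genes looked up there were not all silent. DIO3 of chromosome 14 had 51 to 80 counts in WT and 34 to 79 in MUL1(-/-). DIO3OS beside it fell by 0.98 on the log2 scale (adjusted p = 0.0444). ZNF264, near PEG3, rose by 0.54 (adjusted p = 0.00018), beside a median of 0.55 in its 20 nearest genes. MEG9, USP29 and MIMT1 had 0 to 7 counts per library. MEG3 and DLK1, the maternal RNA and the paternal growth regulator of chromosome 14, had 0 to 4 and 0 to 6 counts in WT and 2 to 6 and 1 to 2 counts in MUL1(-/-), and RTL1 had 1 count in all. MEG8 had 0, 0 and 1 counts in WT and 8, 2 and 3 in MUL1(-/-). PEG3, a paternally expressed zinc finger gene, had 0, 2 and 1 counts in WT and 5, 4 and 9 in MUL1(-/-), and ZIM2, which shares its first exons, had 0 in each WT library and 3, 0 and 6 in MUL1(-/-). These 3 genes were left out of the test by the filter on low counts, and without the filter MEG8, PEG3 and ZIM2 had adjusted p-values of 0.0393, 0.036 and 0.0358. Their WT libraries were under the floor of 3 counts, so no fold change is given. Bins shared with other genes held 66.7% of the counts of ZIM2 and 28.6% of those of PEG3. NAP1L5 had 5 to 12 counts and NLRP2 0 to 14 counts per library, with overlap.

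Of 46 other imprinted genes looked up beside the 36, 45 were found and 32 tested. Of these, 6 rose and 11 fell at an adjusted p under 0.05, beside 19.3% higher and 18.5% lower over all tested genes. Past both thresholds were 2 higher and 6 lower, beside the 4.17% and 3.75% of all tested genes. The 6 include IGF2 with the overlapping IGF2-AS and WT1 with the overlapping WT1-AS, so they are not 6 separate loci. Whether each listed gene is imprinted in these cells was not tested. ZNF331, a zinc finger gene of chromosome 19, rose by 1.07 on the log2 scale (SE 0.0728, adjusted p = 1.1e-07), from 31.6 ± 2.63 to 69.1 ± 0.789 CPM. WT1, a transcription factor of the developing kidney, fell by 1.52 on the log2 scale (SE 0.136), and its antisense gene WT1-AS by 1.91 (SE 0.208), with 53.5% of the latter's counts in shared bins. GLIS3, a zinc finger factor, fell by 1.44 (SE 0.149). CALCR, the calcitonin receptor, which lies beside the PEG10 cluster, and DLGAP2 made up the list with IGF2 and IGF2-AS, and were named after their values were seen. CALCR had 10 to 16 counts in WT and 34 to 56 in MUL1(-/-). The 20 nearest genes that are not imprinted had a median log2 fold change of 0.47 around ZNF331, with 9 higher and 0 lower. Around DLGAP2, which fell by 1.27, it was -0.70, with 0 higher and 14 lower. It was -0.13 around WT1 and WT1-AS, -0.02 around GLIS3, -0.00 around IGF2 and IGF2-AS, and -0.40 around CALCR, which rose.

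Of 28 genes that set, keep or remove methylation at imprinted regions, 21 were tested, of which 5 rose and 4 fell at an adjusted p under 0.05, and 0 passed both thresholds. These counts lie near the background, since 19.3% of all tested genes were higher and 18.5% lower by the same test. Since none met the rule for naming, these 9 were named after their values were seen. DNMT1, the maintenance DNA methyltransferase, rose from 424 ± 7.20 to 592 ± 10.1 CPM (log2 fold change 0.42, adjusted p = 8.1e-05), and its partner UHRF1 by 0.37, with TRIM28 at 0.42, ARID4B at 0.29 and CTCF at 0.26. DNMT3B, a methyltransferase that sets new marks, fell from 45.6 ± 2.34 to 30.1 ± 0.932 CPM (log2 fold change -0.66, adjusted p = 8e-06), and TET1, which oxidises methylated cytosine, from 30.0 ± 1.61 to 17.2 ± 3.85 CPM (log2 fold change -0.86, adjusted p = 8.7e-05). HELLS fell by 0.44 and SETDB1 by 0.24. Most of these changes were close to those of the 20 nearest genes, whose median log2 fold change was 0.49 around DNMT1, 0.54 around UHRF1, 0.41 around TRIM28, 0.29 around ARID4B, -0.52 around DNMT3B, -0.39 around HELLS and -0.54 around TET1. It was 0.06 around CTCF and 0.08 around SETDB1. ZFP57 had 4 to 12 counts in WT and 10 to 29 in MUL1(-/-), and did not pass the test (adjusted p = 0.0584).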

How the data were processed

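RNA of HEK293 WT and MUL1(-/-) cells (n = 3 each) was sequenced from libraries made with a SMARTER kit, and per the submitters' processing notes reads were trimmed with Trimmomatic 0.36 and aligned to GRCh38 with STAR 2.5.2b. The authors deposited raw counts per exon bin of a flattened annotation, without normalization, and the counting program is not given in the sources used here. There were 597973 bins under 54848 identifiers, of which 2031 join overlapping genes and hold 21.0% of the counts.

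Bins were summed to give a count per gene, and bins of joined identifiers were given to every gene whose same-strand GENCODE exons they overlap, so that 15566 bins count for more than 1 gene. The plan had foreseen this division. Bins with no gene held 0.0169% of the counts. Library size was the sum over the deposited bins, from which CPM were computed.

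Genes were tested with edgeR 4.0.16 in R 4.3.3 (filterByExpr, TMM factors of 0.954 to 0.993 in WT and 1.01 to 1.04 in MUL1(-/-), quasi-likelihood test, Benjamini-Hochberg over 26060 genes). Calls needed an adjusted p under 0.05 together with a log2 fold change beyond 1 in either direction, as in the study, which used DESeq2. Bin use was tested with diffSpliceDGE over 324742 bins. First exons within 500 bases of each other were joined into regions. CPM are not scaled by the TMM factors, and the log2 fold changes are. The SE of a fold change was its size over the square root of the F statistic.

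Alternatives were DESeq2 1.42.0, limma 3.58.1 (voom), RLE factors, library totals, no filter, each library left out, a filter of 1 CPM in 3 or more samples, a block for the replicate number, the most counted bin, bins shared with no other gene, joined identifiers kept whole, and, for fold changes, the difference from the 20 nearest genes that are not imprinted. Members, gene lists and tests were chosen with earlier results of these data known. Genes named were all 36 members, MUL1, IGF2, up to 5 genes of each further list past both thresholds with the smallest p, and called bins of at least 1 CPM.

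The fits were tested on simulated data, with 200 genes changed by a log2 fold change of 2 among 26060. EdgeR, DESeq2, voom and the block fit recovered 200 each, with 0, 0, 3 and 0 false calls. Of 200 bins changed among 330941, diffSpliceDGE recovered 186, with 3 false calls in genes without a changed bin. False calls in other bins of the changed genes were not counted. The changed genes and bins had means above 1 CPM, so recovery at lower levels was not tested. Replicates differed by 3.08 to 9.77 times their sampling noise (chi-square per degree of freedom), and all were kept. Floors cover counting error only. Figures used matplotlib 3.10.9, and tables pandas 2.3.3, numpy 2.4.6 and scipy 1.17.1, in Python 3.11.15.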

Additional observations from a re-analysis of the deposited data

How the results depend on the processing

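CDKN1C stayed the 1 member called lower under each of the 16 alternatives of the gene fit. With the adjusted p alone 2 members were higher and 10 lower. Without the filter on low counts 3 members were called higher, which are the near-silent genes MEG8, PEG3 and ZIM2. Members higher at an adjusted p under 0.05 numbered 2, but 6 with library totals and 7 without the filter, and 1 to 3 when a library was left out, with 1 without WT replicate 3 and 1 without MUL1(-/-) replicate 2. In the list of other imprinted genes, 1 was called higher with the filter of 1 CPM and 1 with the most counted bin. In the list of methylation factors, 1 was called higher with library totals, 1 without the filter, and 0 to 1 when a library was left out, with 1 without WT replicate 2 and 1 without MUL1(-/-) replicate 2. Called member bins numbered 7 higher, but 3 with the filter of 1 CPM and 4 to 9 when a library was left out, with 4 without WT replicate 1, and 3 lower, but 19 when each bin's own level was tested.

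Several members that did not pass the test turned in direction. SGCE was 0.020 with library totals and 0.0018 with the most counted bin. NNAT was -0.28 with the most counted bin and -0.22 with unshared bins, and -0.14 to 0.14 when a library was left out. SNRPN was 0.0052 with DESeq2, 0.27 with voom, 0.052 with library totals, 0.0067 without the filter, 0.16 with the replicate block and 0.070 with joined identifiers whole, and -0.46 to 1.15 when a library was left out. Leaving out a library moved H19 between -0.78 and 0.63 and PLAGL1 between -0.35 and 0.00049, and PLAGL1 was -0.93 with the most counted bin. The cause was not tested. Of the single-gene values under alternatives, 356 kept their direction and their side of the threshold, 17 newly passed it (5 of L3MBTL1, 4 of UBE3A, 3 of TRAPPC9, 2 of PHLDA2, 2 of GRB10 and 1 of PLAGL1), 14 no longer passed it (MKRN3 and DIRAS3), 17 turned in direction, and 11 moved, each of these as the difference from the nearest genes.

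The replicate numbers were not taken to pair the samples: deviations of same-numbered libraries from their group means correlated at -0.106, 0.168 and 0.101 over 16657 genes, and not every library correlated best with its own number. With the replicate number as a block 0 members were called higher and 1 lower, and 2 and 10 at the adjusted p alone, 2 other imprinted genes were called higher and 7 lower, and 6 member bins higher and 3 lower.

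With the filter of 1 CPM there was no value for DDC, DIRAS3, H19, NNAT or SNRPN, with unshared bins none for KCNQ1OT1 or SNRPN, and with the most counted bin none for DDC or SNRPN. Depth limits the near-silent members, where 1 count is 0.00670 to 0.00785 CPM. A few counts in a single library decide their direction. Members with many counts in bins shared with another gene can carry that gene's reads as well. Among them are MEST, SNRPN, SNURF, KCNQ1OT1, MKRN3, NNAT, PEG3, ZIM2 and the NESP55 exon.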
